A study of Mus musculus with 12 samples.

Results

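The comparison described here set the brains of newborn *nm1054* mice on one inbred background against those on another. It used 6 of the 12 arrays of the series, 3 titled *nm1054* 129S6/SvEvTac (*nm1054* 129) and 3 titled *nm1054* C57BL6/J (*nm1054* B6), and every one of the 45281 probes. Each array carried RNA from a whole brain at 1 day of age, and all 6 brains were homozygous for *nm1054*, a spontaneous deletion on chromosome 1 that removes *Dbi* (*Acbp*), *Cfap221*, *Sctr*, *Steap3*, *Tmem37* and *3110009E18Rik*. The *nm1054* B6 mice also carried a bacterial artificial chromosome transgene with *Steap3*, because B6 mutants without it have a lethal anemia, so strain and transgene cannot be told apart in any difference below. The other 6 arrays were WT 129 and WT B6 brains of the same age, 3 each, without deletion or transgene. The methods state that every group held male and female mice. The labels name replicates but not litters, so the p-values measure only the spread between these brains.

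*Cfap221* encodes a protein of the central apparatus of motile cilia. Ependymal cells, which line the ventricles, carry tufts of such cilia that move cerebrospinal fluid, and they build them in the days after birth. Loss of *Cfap221* impairs this flow on both backgrounds, but the study describes the enlargement of the ventricles, hydrocephalus, as worse on B6, and compared the strains before any was visible. Inbred strains differ at many sites across the genome, both in how much RNA a gene makes and in the letters of that RNA. An array probe reads only a short stretch of a transcript, so different probes of a gene can give different answers.

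Values are log2 units relative to the median of that probe over the 12 arrays, so they show how far a brain lay from the others at a probe and not how much RNA there was. Detection calls were not used here, and the defining markers of brain could not be checked for presence. Differences are 129 minus B6. A probe counted as called when its limma adjusted p was under 0.05 and the brains differed by over 1.5-fold. In whole-brain RNA, fewer cells of a type and less RNA per cell cannot be told apart.

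Medians over all probes ran from -0.10 to 0.08 in the 6 *nm1054* brains and from -0.17 to 0.11 over all 12, the lowest in WT B6 replicate 1. The SD of the difference between replicates was 0.189 to 0.232 within *nm1054* 129 and 0.237 to 0.248 within *nm1054* B6. It was 0.173 to 0.213 within WT 129 and 0.211 to 0.332 within WT B6, where both values over 0.3 involved replicate 1, the array of lowest weight (0.23, against 0.515 to 3.4 for the others) when limma weighted arrays by quality. The deletion was visible in all 6 brains at *Dbi* probe ILMN_1215469, which lay between -3.89 and -3.35 in *nm1054* and between 3.35 and 3.70 in WT brains. *Xist*, made from the inactive X chromosome of females, was high in *nm1054* 129 replicate 1 and *nm1054* B6 replicates 1 and 2 and low in the other 3 brains, and the Y-linked *Eif2s3y* (ILMN_1241001) and *Kdm5d* (ILMN_1224210) ran the other way. None of the 13 probes of sex-linked genes was called between the strains.

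The strains differed at many probes in *nm1054* brains, and the largest differences were mostly losses in 129. limma called 1479 of 45281 probes (3.27%), 628 higher (1.39%) and 851 lower (1.88%) in *nm1054* 129. Without adjustment, 10042 probes (22.2%) had a p under 0.05. Probes with a gene symbol were called at a rate of 3.31% and those without at 3.09%. Called probes differed by a median of 0.885 log2 units in size, against 0.16 over all probes and a median standard error of 0.131. The balance of directions shifted with size. Over a 2-fold difference there were 182 probes higher and 445 lower, over 4-fold 24 and 147, and over 8-fold 5 and 53. On the mean of the probes of each gene, 223 genes of 20289 were higher (1.1%) and 313 lower (1.54%), 2.64% in all.

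Over all probes the median difference was 0.12 log2 units, and it was 0.02 when each array was centred on its median or when the arrays were quantile normalized. All differences below are to be read against that shift. Centring changed the called probes to 408 higher (0.901%) and 1117 lower (2.47%), 3.37% in all, so the share higher fell from 42.46% to 26.75%, and it was 32.23% after quantile normalization. The unpaired t-test of the study's methods, run here on every probe, called 714 probes, 244 higher and 470 lower. The study first removed probes called absent on all arrays, so this is not the count it reported. The 3 *nm1054* 129 brains lay entirely above the 3 *nm1054* B6 brains at 23.2% of probes and entirely below them at 6.07%, so groups without overlap (29.3% of all probes) were far more frequent than calls.

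**Figure D1:**
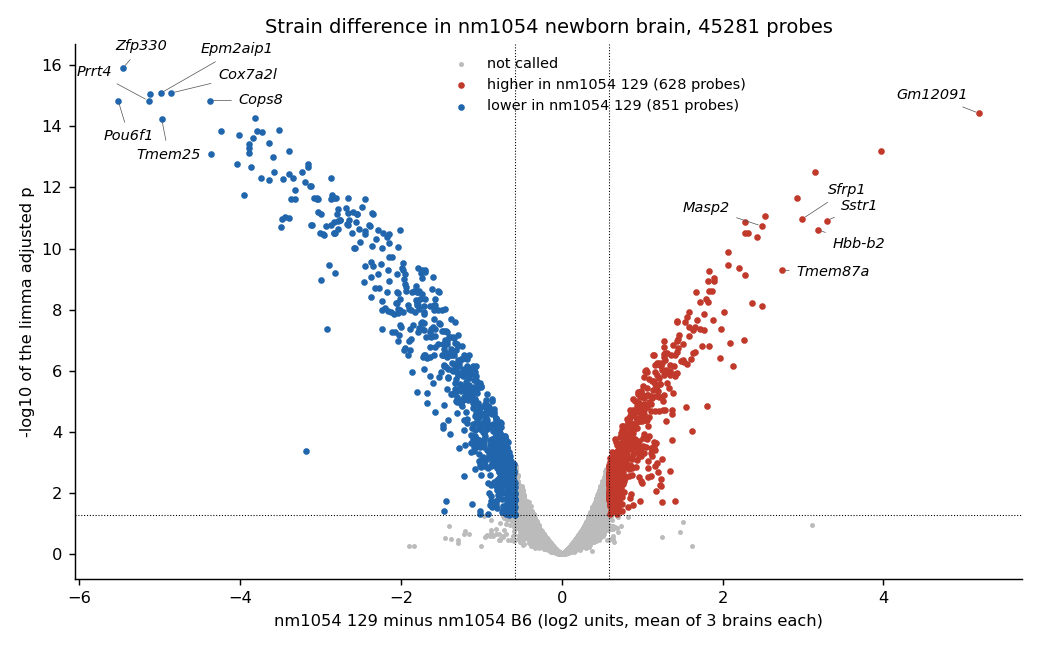
Every probe in *nm1054* brains, by its difference between 129 and B6 in log2 units (horizontal axis) and the negative log10 of its limma adjusted p (vertical axis). Called probes are coloured by direction, and of the 13 that differ over 16-fold, 12 lie on the left, lower in 129.

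The gene with the largest loss in *nm1054* 129 was *Pou6f1* on chromosome 15, a POU-domain transcription factor of the nervous system with 1 probe. It read -2.63, -2.75 and -3.02 in the *nm1054* 129 brains and 2.66, 2.63 and 2.86 in the *nm1054* B6 brains. The groups lay far apart with little spread, a difference of -5.52 (SE 0.14, limma adjusted p = 1.46e-15) or 45.8-fold. *Zfp330*, a zinc finger gene on chromosome 8, read -2.76, -2.68 and -2.85 in 129 and 2.69, 2.67 and 2.73 in B6 at ILMN_2825109. That is a 44.0-fold difference (-5.46, limma adjusted p = 1.28e-16), yet its second probe differed by -0.18 and was not called. *Prrt4*, a gene for a proline-rich membrane protein, followed with -2.38, -2.41 and -2.72 in 129 against 2.35, 2.87 and 2.69 in B6, 35.2-fold lower.

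Other genes of large loss in *nm1054* 129 belong to basic machinery of the cell. *Cox7a2l*, an assembly factor of respiratory supercomplexes that is known to exist in a long and a short form among inbred strains, was lower by -4.86 at 1 of 2 probes (limma adjusted p = 8.23e-16), and the other probe differed by -0.06. *Cops8*, a subunit of the COP9 signalosome, which removes Nedd8 from ubiquitin ligases, read -2.12, -2.26 and -2.30 in 129 and 2.12, 2.12 and 2.22 in B6, with a difference of -4.38. *Supt16*, a subunit of the histone chaperone FACT, was lower by -4.36 at 1 probe and higher by 0.63 at the other. That higher call ended without *nm1054* 129 replicate 2 (0.61) or *nm1054* B6 replicate 2 (0.55), and when arrays were centred or quantile normalized.

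The same set of 15 genes holds *Epm2aip1* (-4.99 at 1 of 5 probes), *Tmem25* (-4.98 at 1 of 3), *Lrrc57* (-4.03 at its only probe), *Mak16*, a factor of ribosome assembly (-4.01 at 1 of 3), and *Prkag2*, a regulatory subunit of AMP-activated protein kinase (-3.85 at 1 of 2). *Myt1l*, a transcription factor that maintains neuronal identity, was lower by -3.95 at 1 of 5 probes, with the highest of the others at 0.26. *Fcer1g*, the shared signaling chain of Fc receptors on microglia and other myeloid cells, read -2.02, -2.18 and -2.09 in 129 and 1.66, 1.69 and 2.04 in B6 at its only probe. Its difference was -3.89 (SE 0.13, limma adjusted p = 5.24e-14), 14.8-fold lower in 129. *Prdx2* (-3.89) and *Arv1* (-3.89), the rest of the 15, are described with red cell genes and with genes of several probes.

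The largest gain in *nm1054* 129 among named genes was *Sstr1* on chromosome 12, an inhibitory receptor for somatostatin. Its only probe read 1.34, 1.5 and 1.72 in 129 and -1.34, -2.08 and -1.92 in B6, a difference of 3.30 (SE 0.16, limma adjusted p = 1.22e-11) or 9.83-fold. *Sfrp1* on chromosome 8, a secreted antagonist of Wnt ligands, read 1.51, 1.53 and 1.69 in 129 and -1.45, -1.38 and -1.41 in B6 at ILMN_2604282. The difference was 2.99 (limma adjusted p = 1.08e-11), 7.95-fold, with narrow spread in both groups. Its second probe was higher by 0.72, and that call ended without *nm1054* B6 replicate 2 (0.58). *H2-Bl*, an MHC class I gene on chromosome 17, read 1.27, 1.26 and 1.00 in 129 and -1.35, -1.07 and -1.36 in B6, 5.4-fold higher.

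The other named genes of large gain served varied functions, and *Hbb-b2* and *Masp2*, also of the 15 most raised, are described with red cell and complement genes. *Timmdc1*, an assembly factor of respiratory complex I, was higher by 2.49 at 1 of 2 probes, and *Trappc12*, of the TRAPP complex of vesicle tethering, by 2.37 at 1 of 3. *Ttl*, tubulin tyrosine ligase, was higher by 2.27 at 1 of 3 probes, *Adat2*, an enzyme that edits transfer RNA, by 2.28, and *Cap1*, a regulator of actin turnover, by 2.13 at its only probe. *Tmem87a* (2.74 at 1 probe, -0.11 at the other) and *Golga7* (2.53 at 1 of 3 probes, the others at -0.04 and 0.01) encode proteins of the Golgi apparatus. *Golm2* was higher at 2 of 4 probes (2.09 and 1.77), *Ocel1* (2.31) and *Cuedc1* (2.21) at their single probes. The probe of largest gain of all belongs to a predicted gene, *Gm12091*, at 5.20 (limma adjusted p = 3.83e-15), and was chosen after its value was seen.

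**Figure D2:**
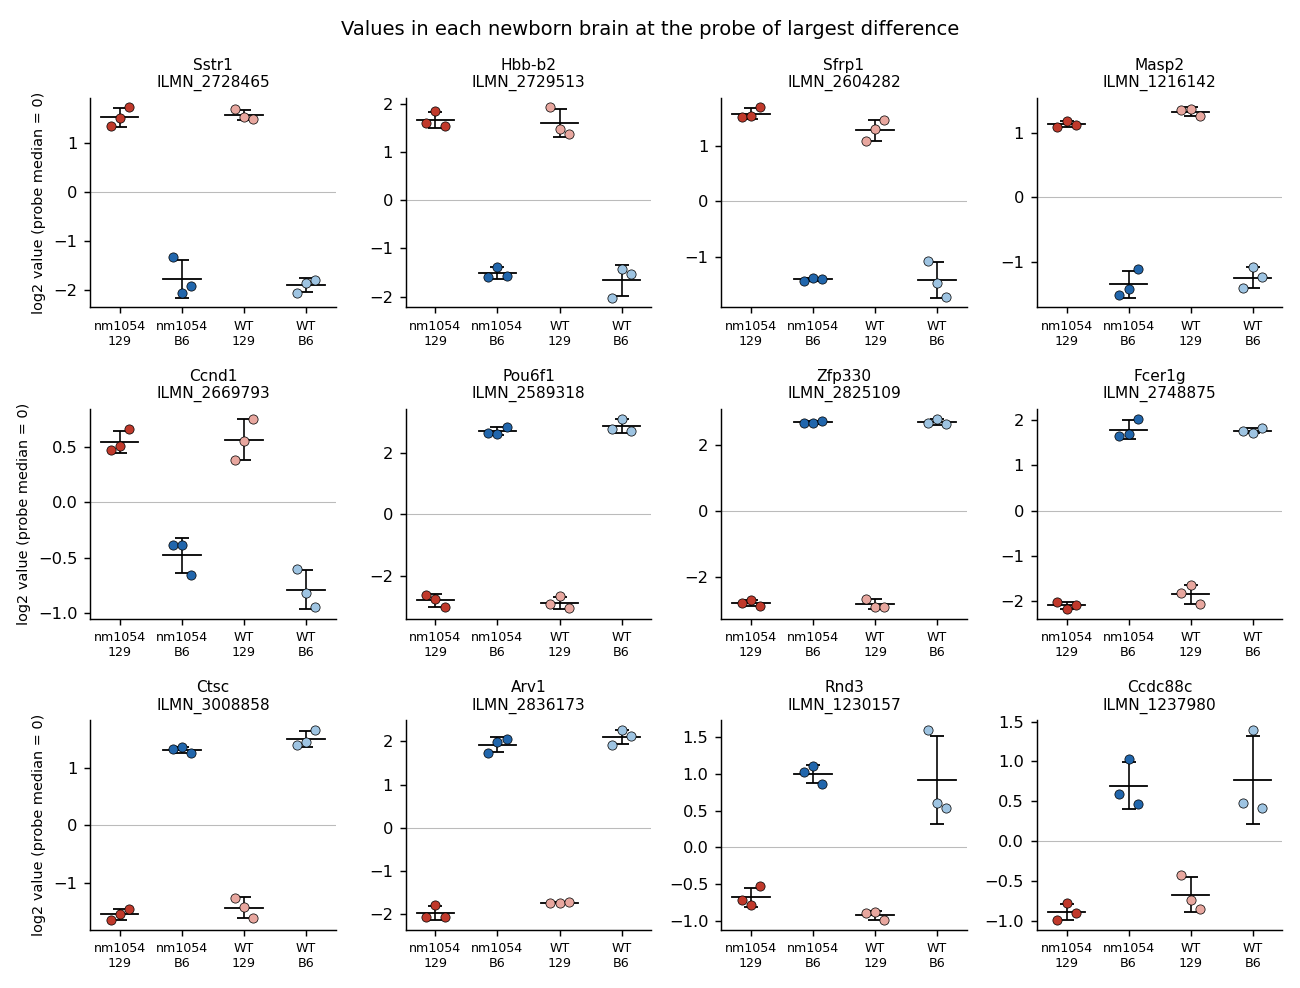
Log2 values of 12 genes in each of the 12 brains by group, with group mean (line) and SD (bars), 3 brains a group. The probe shown is the called probe of largest difference of each gene. In *nm1054* brains the strains do not overlap at any of these chosen probes, as at 29.3% of all probes. The WT brains of each strain lie on the same side as their mutants.

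Most called genes with several probes were called at 1 of them. A called probe with a symbol was found for 1027 genes. Of these, 312 had a single probe and 715 had more, and at 578 of the 715 exactly 1 probe was called. All probes were called higher for 24 genes and lower for 28, and of the genes with 3 or more probes this held for 3 and 9. Probes of 16 genes were called in opposite directions. Among them were *Rpap1*, a factor of RNA polymerase II assembly (1.09 and -1.42), *Neo1*, a receptor for netrins and repulsive guidance molecules (0.72 and -1.21), *Draxin*, a repulsive axon guidance protein (0.81 and -0.92), and *Actb*, the cytoplasmic actin often used as a reference gene (1.25, 1.16 and -1.47 among 5 probes). At the *Actb* probe lower in 129, replicate 3 read -1.92 and the other *nm1054* 129 brains -0.39 and 0.09. *Rpap1*, *Neo1* and *Actb* were chosen after their values were seen. Whether the strains differ in sequence under a probe was not tested.

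Some genes were called at every probe. *Ctsc*, which encodes the lysosomal protease cathepsin C, was lower in *nm1054* 129 at all 3 probes (-2.86, -1.77 and -1.39). At ILMN_3008858 it read -1.65, -1.54 and -1.46 in 129 and 1.32, 1.36 and 1.26 in B6 (limma adjusted p = 1.74e-12), with a wide gap between the strains. *H2aj*, a variant histone (-3.58, -0.94 and -0.77), *Pla2g4b*, a phospholipase (-1.82, -1.29 and -1.14), *Hjurp*, the chaperone that loads the centromeric histone (-1.24, -1.18 and -1.10), *Gstm6*, a glutathione transferase (-1.43, -1.29 and -0.85), and *Thbs3*, a thrombospondin of the matrix (-1.07, -0.94 and -0.74), were lower at all 3 as well. *Zcchc3*, a cofactor of nucleic acid sensing, was lower by -1.87, -1.43 and -1.23. *Muc1*, a mucin of epithelial surfaces, was lower at 4 of 4 probes (-0.87 to -0.60), 1 of them not called without *nm1054* 129 replicate 3 (-0.49) and 1 not without *nm1054* B6 replicate 3 (-0.58). *Rapgef5*, an exchange factor for Rap GTPases, was lower by -1.08, -0.96 and -0.89, and the call at -0.89 ended without any 1 *nm1054* array other than *nm1054* B6 replicate 3 (-0.94 to -0.77). *Gstm6* has close relatives in its family, and its probes may read more than 1 of them.

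Higher at all 3 probes were *Ccnd1*, *Tmod4* and *Abhd1*. *Ccnd1*, cyclin D1, which drives progenitors into the cell cycle, read 0.47, 0.51 and 0.66 in *nm1054* 129 and -0.39, -0.38 and -0.66 in *nm1054* B6 at ILMN_2669793, a difference of 1.02 (SE 0.13, limma adjusted p = 1.9e-05). Its other probes differed by 0.80 and 0.64, and the call at 0.64 ended when arrays were centred and without *nm1054* 129 replicate 1 (0.56) or *nm1054* B6 replicate 1 (0.55). *Tmod4*, a tropomodulin that caps actin filaments, was higher by 1.20, 1.02 and 0.65, the last not called without *nm1054* 129 replicate 3 (0.57) or after centring or quantile normalization. *Abhd1*, of the alpha/beta hydrolase family, was higher by 1.08, 1.05 and 0.83.

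Among genes with 2 probes, *Arv1*, which moves sterols out of the endoplasmic reticulum, stood out. It read -2.06, -1.78 and -2.08 in *nm1054* 129 and 1.72, 1.99 and 2.05 in *nm1054* B6 at ILMN_2836173, a difference of -3.89 (limma adjusted p = 3.92e-14), and differed by -2.55 at its second probe. *Rpl29*, a ribosomal protein gene (-3.80 and -1.09), *Cfap69*, a motile cilia gene (-2.94 and -2.0), *Zfp933* (-2.45 and -1.80) and *B3galt6*, an enzyme of proteoglycan linkers (-2.36 and -1.17), were lower at both probes. *Rab26*, a GTPase of secretory vesicles (1.18 and 1.02), *Bricd5* (1.37 and 1.05) and *Wdfy1* (1.29 and 0.75) were higher at both. So were *H2ac12* (1.35 and 1.24), *H2ac13* (1.20 and 1.12) and *H2ac7* (1.22 and 1.19), replication-dependent histone H2A genes of the chromosome 13 cluster. These are near-identical copies, so the probes cannot assign the difference to 1 of them. In *H2ac12* the *nm1054* 129 brains lay between 0.33 and 0.50 over both probes and the *nm1054* B6 brains between -1.10 and -0.61.

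The promoters of *Ctsc*, *Arv1*, *Tmod4* and *H2ac12*, each called at all its probes, are shown as sequence context for 2 of the losses and 2 of the gains. *Abhd1* and *Sfrp1* ranked ahead of the 2 gains shown but had no promoter in the reference used. The gain at the *H2ac12* probes cannot be assigned to that copy alone. The promoters are the 250 bases before the gene start on the gene's strand from RefSeq, build GRCm38.p6, whose sequence is that of C57BL/6J. Capitals mark matches, on either strand, to 4 motifs. They were the TATA box with the letters TATAAA, the GC box with GGGCGG, the CCAAT box and, with TGACG, the core of a cAMP response element.
Ctsc, chr7:88277835-88278084, plus strand: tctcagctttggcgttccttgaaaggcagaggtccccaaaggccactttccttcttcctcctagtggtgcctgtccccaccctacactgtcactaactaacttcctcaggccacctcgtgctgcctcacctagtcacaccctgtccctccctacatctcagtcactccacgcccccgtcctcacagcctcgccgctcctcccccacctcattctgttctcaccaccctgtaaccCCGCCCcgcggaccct
Arv1, chr8:124721916-124722165, plus strand: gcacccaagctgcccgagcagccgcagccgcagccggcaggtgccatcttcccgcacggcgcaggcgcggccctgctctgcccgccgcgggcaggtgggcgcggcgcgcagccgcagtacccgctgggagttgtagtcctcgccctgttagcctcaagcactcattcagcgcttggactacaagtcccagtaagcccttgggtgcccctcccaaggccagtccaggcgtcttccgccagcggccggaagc
Tmod4, chr3:95124264-95124513, plus strand: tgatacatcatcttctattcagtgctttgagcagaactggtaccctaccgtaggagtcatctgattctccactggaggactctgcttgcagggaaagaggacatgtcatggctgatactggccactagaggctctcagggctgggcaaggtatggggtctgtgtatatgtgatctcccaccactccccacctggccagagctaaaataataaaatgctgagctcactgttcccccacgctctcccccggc
H2ac12, chr13:22035644-22035893, minus strand: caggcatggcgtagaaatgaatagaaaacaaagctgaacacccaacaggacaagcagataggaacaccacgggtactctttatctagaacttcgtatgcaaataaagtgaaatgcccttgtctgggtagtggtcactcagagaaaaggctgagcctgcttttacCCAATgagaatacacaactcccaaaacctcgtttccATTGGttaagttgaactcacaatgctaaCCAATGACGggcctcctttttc
The *H2ac12* promoter holds 3 CCAAT boxes, a number reached by 2.78% of 32536 promoters of that length, and 1 TGACG that shares a base with the last of them. *Ctsc* holds 1 GC box near the start, as 33% of promoters do, and none of the 4 motifs was matched in *Arv1* or *Tmod4*. Over all promoters TATAAA was found in 12.3%, CCAAT in 33.8% and TGACG in 17.9%. GC content was 70.8% for *Arv1*, 60.4% for *Ctsc*, 52.4% for *Tmod4* and 44.0% for *H2ac12*.

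**Figure D3:**
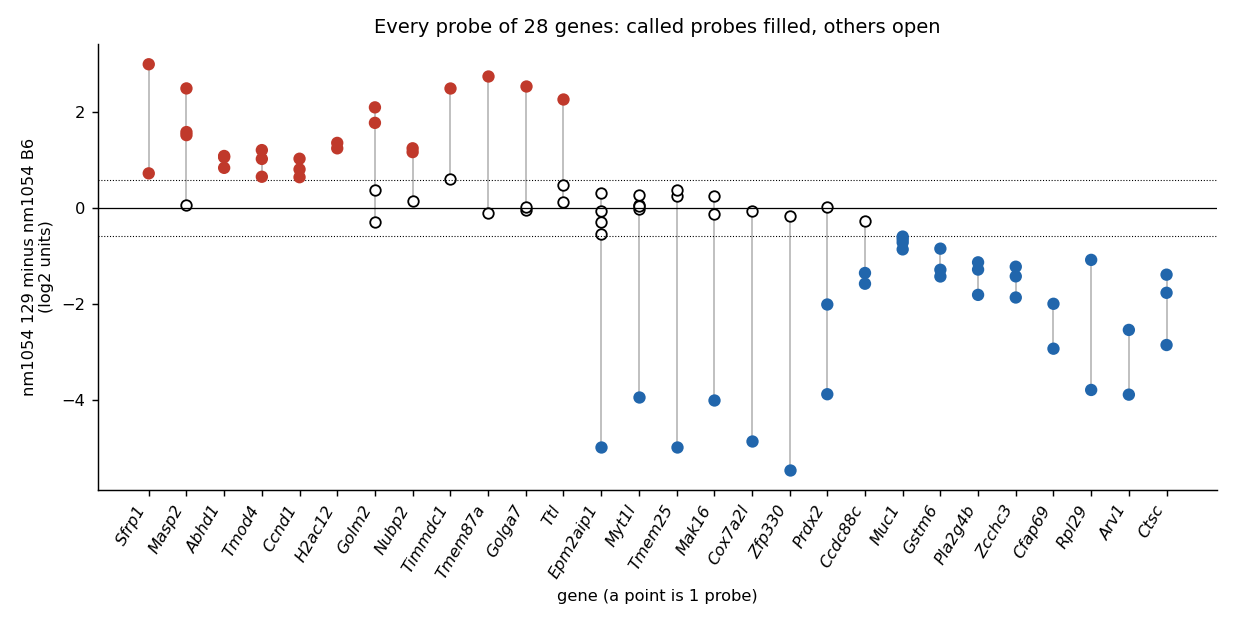
The difference between *nm1054* 129 and *nm1054* B6 at every probe of 28 genes, in log2 units, filled where called and open where not. *Ctsc*, *Arv1* and *Ccnd1* agree over all their probes, while *Zfp330*, *Myt1l* and *Cox7a2l* each have 1 far probe and others near 0.

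Genes of the cilium and the centrosome are of interest here because the mutation disables motile cilia. The lists here and below were chosen with the study's findings in view, so their shares are no test against all probes. Of 142 probes of 77 motile cilia genes, 3 were higher and 6 lower (6.34%, against 3.27% of all probes), and after centring 2 were higher and 6 lower. The largest was *Cfap69*, needed for the assembly of motile cilia and sperm flagella, which read -1.29, -1.39 and -1.47 in *nm1054* 129 and 1.29, 1.48 and 1.90 in *nm1054* B6 at ILMN_2714209. *Wdr92*, a dynein arm assembly factor, was lower by -1.27 at 1 of 2 probes, and *Ccdc114*, of the outer dynein arm docking complex, by -0.78 at 1 of 3. *Ccdc65*, of the nexin-dynein regulatory complex, was higher by 0.73 at 1 of 2. The 2 probes of *Spag1*, another assembly factor, were called in opposite directions (0.88 and -0.69).

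Of 163 probes of primary cilia and transport genes, 1 was higher and 6 lower (4.29%). *Arl3*, a GTPase that releases lipid-modified cargo in the cilium, read -1.36, -1.57 and -1.95 in *nm1054* 129 and 1.47, 1.43 and 1.35 in *nm1054* B6, 8.22-fold lower, but its second probe differed by 0.03. *Mkks*, a chaperonin-like protein of the Bardet-Biedl syndrome, was lower by -1.95 at 1 of 3 probes, *Ehd3*, of ciliary vesicle traffic, by -1.23 at its only probe, and *Tulp3*, a ciliary adaptor, by -0.74 at 1 of 2. *B9d1*, of the transition zone, was higher by 0.83. The 3 probes of *Ift74* were not called (-0.28 to 0.40).

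Centrosome genes gave 3 probes higher and 9 lower among 187 (6.42%). *Plk1*, a mitotic kinase, was lower by -1.71 (SE 0.13, limma adjusted p = 1.43e-08) at its only probe, and *Tubgcp4*, of the gamma-tubulin ring, by -1.71 and -1.33 at both. *Ccp110*, which caps centrioles (-1.49 at 1 of 3 probes), *Pcm1*, the scaffold of centriolar satellites (-1.19 at 1 of 5), *Cep162* (-1.17 at 1 of 2) and *Mdm1* (-0.76 at 1 of 11) were lower at a minority of probes or at 1 of 2. *Nubp2*, a regulator of centriole number, was higher by 1.24 and 1.16 at 2 of 3 probes and *Cep43* by 1.06 at 1 of 2. Centring or quantile normalization left 3 higher and 10 lower.

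The hydrocephalus list had no probe higher and 5 lower in *nm1054* 129 among 73 (6.85%), the same counts after centring and quantile normalization. The lists were chosen with the study's findings in view. Not all genes named here are linked to hydrocephalus by mutation or loss. For *Cdh2* the study cites only damage after its junctions were blocked outside the animal, and for *Sparc* only a proposed role in cerebrospinal fluid. *Rnd3*, whose loss in mice causes hydrocephalus, read -0.72, -0.79 and -0.53 in *nm1054* 129 and 1.03, 1.10 and 0.87 in *nm1054* B6, a difference of -1.68 (SE 0.19, limma adjusted p = 5.32e-06) or 3.21-fold. *Ccdc88c* (Daple), a regulator of Wnt signaling and planar polarity mutated in human hydrocephalus, read -0.99, -0.78 and -0.89 in 129 and 0.59, 1.03 and 0.47 in B6 at ILMN_1237980. It was lower by -1.58 and -1.36 at 2 of 3 probes, and the third differed by -0.27 without a call. *Cdh2*, N-cadherin, which holds the cells lining the ventricle together, was lower by -1.64 at 1 of 2 probes and differed by 0.30 at the other. *Sparc*, a matricellular protein, was lower by -2.58 at 1 of 3. The 5 probes of *Mpdz*, a tight junction protein mutated in human hydrocephalus, lay between -0.35 and 0.15 and none was called.

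Of 49 choroid plexus probes, 1 was lower and none higher (2.04%), and after centring 3 were lower. It was *Otx2*, a transcription factor of the choroid plexus epithelium, by -0.88. The *nm1054* B6 brains read 0.27, 1.00 and -0.17, and the call ended without replicate 2 of that group (-0.57, limma adjusted p = 0.0858) or without *nm1054* 129 replicate 3 (-0.76). None of 38 oligodendrocyte lineage probes was called, and 1 of 61 of radial glia and astrocytes (1.64%, *Ndrg2*, -0.98 at 1 of 2 probes). Over all probes the share was 3.27%, and lists this small cannot be set apart from it by such counts.

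Genes of red blood cells had the highest share of calls among lists of over 30 probes, with 5 probes higher and 4 lower of 74 (12.2%). After centring the balance turned to 4 higher and 5 lower, and after quantile normalization it was even at 4 and 4. The adult beta-globin locus on chromosome 7, known to carry different haplotypes in inbred mice, gave opposite differences. *Hbb-b2* read 1.61, 1.85 and 1.55 in *nm1054* 129 and -1.60, -1.38 and -1.57 in *nm1054* B6, 9.11-fold higher (limma adjusted p = 2.45e-11). *Hbb-b1* was lower by -3.0 and -2.92 at 2 of its 11 probes, while the other 9 lay between -0.55 and 0.43. The globin copies are so alike that a probe cannot be assigned to 1 of them with certainty.

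*Prdx2*, a peroxiredoxin abundant in red cells, was lower by -3.89 and -2.02 at 2 of 3 probes and differed by 0.02 at the third. *Sptb*, beta-spectrin of the red cell skeleton, was higher by 1.25 at 1 of 4 probes, and *Alad*, an enzyme of heme synthesis, by 0.95. *Alas2*, which starts heme synthesis in red cell precursors, was higher by 0.71, a call lost without *nm1054* 129 replicate 2 (0.62), *nm1054* 129 replicate 3 (0.66) or *nm1054* B6 replicate 1 (0.63). Of 75 iron handling probes only *Ncoa4*, the receptor for ferritin breakdown (-1.31 at 1 of 4), and *Slc11a2*, an iron importer (0.64 at 1 of 3), were called (2.67%), the latter not after centring or quantile normalization. *Steap3*, deleted on both backgrounds and restored on B6 by the transgene, was not called at either probe (0.16 and 0.28) and was not higher in the brains with the transgene. The study describes its detection on these arrays as inconsistent, marginal or absent, even in comparisons with WT brains. These probes therefore cannot show whether the transgene raised *Steap3* RNA.

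The few calls in parts of the protein-making and protein-degrading machinery were all lower in *nm1054* 129. Most calls over all probes were lower too, 851 of 1479, and 1117 of 1525 after centring. Ribosomal protein genes had no probe higher and 6 lower of 90 (6.67%), under each scaling. They were both probes of *Rpl29*, *Rps13* (-2.15 at 1 of 2), *Rps15a* (-1.35), *Rplp0* (-0.68 at 1 of 2) and *Rpl30* (-0.60 at 1 of 2), the last named after its value was seen. Of 104 proteasome and COP9 signalosome probes, none was higher and 5 were lower (4.81%), under each scaling. Beside *Cops8* these were *Psmd8* (-3.45 at 1 of 2 probes, 0.32 at the other) and *Psmc4* (-2.01 at 1 of 2, 0.14 at the other) of the proteasome. The rest were the proteasome subunit *Psmb5* (-1.03), named after its value was seen, and the COP9 protease subunit *Cops5* (-1.04 at 1 of 3). Most members were not called, and the medians of both lists, 0.08 and 0.09, lay near that of all probes.

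Mitochondrial genes were called at 2 probes higher and 4 lower of 139 for the respiratory chain (4.32%) and at 1 higher and 5 lower of 175 for import and the mitochondrial ribosome (3.43%). *Ndufb10*, a complex I subunit, was lower by -3.40 at 1 probe and higher by 1.38 at the other. *Tomm22*, a receptor of the outer membrane import pore, was lower by -3.59 at 1 of 2 probes, and *Mrps27* of the mitochondrial ribosome by -1.58 at its only probe. Both probes of *Mrps12* were lower (-0.70 and -0.68).

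**Figure D4:**
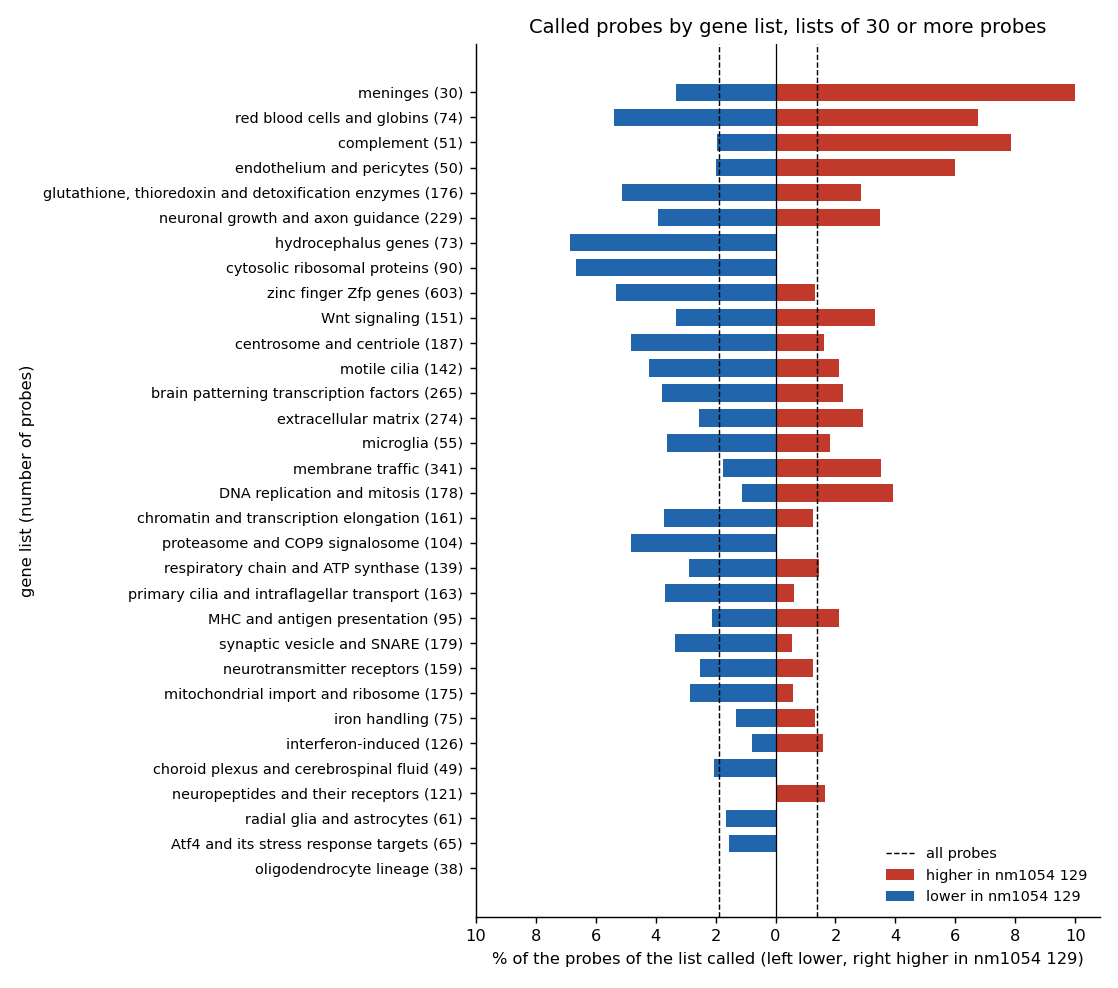
Percent of probes called higher (right) and lower (left) in *nm1054* 129 for the gene lists with 30 or more probes, with dashed lines at the shares over all probes, 1.39% and 1.88%. Most lists reach beyond the upper line, the lower line or both. Red blood cell, meninges and complement lists reach beyond both, and zinc finger, ribosomal and hydrocephalus lists beyond the lower line alone.

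Zinc finger genes made up the longest list, and most of their calls were lower in *nm1054* 129, while the median difference of the list was 0.10, near that of all probes. Of 603 probes, 8 were higher and 32 lower (6.63%), 4 and 35 after centring and 6 and 35 after quantile normalization. Beyond *Zfp330*, *Zfp365* (-3.09), *Zfp235* (-2.87) and *Zfp940* (-2.78) were lower at single probes. *Zfp704* was higher by 1.81 at 1 of 4 probes, *Zfp386* by 0.97 at 1 of 3 and *Zfp536*, a repressor of neuronal differentiation, by 0.84. Many of these genes lie in clusters of close relatives. Chromatin and elongation genes had 2 probes higher and 6 lower of 161 (4.97%), and 0 and 9 after centring. Beside *Supt16*, *Wdr82*, of the complex that methylates histone H3 at promoters, was lower by -3.72 at 1 of 3 probes, and *Actl6b*, of the neuronal BAF remodeler, by -2.67 at 1 of 4.

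Detoxification enzymes gave 5 probes higher and 9 lower of 176 (7.95%), and 3 and 10 after centring. *Glrx*, glutaredoxin, was lower by -3.64 at 1 of 2 probes, *Akr1c19*, an aldo-keto reductase, by -2.99 and *Mgst1*, a microsomal glutathione transferase, by -2.46 at 1 of 2. Higher were *Glo1*, glyoxalase, by 1.03, and *Cat*, catalase, by 0.83 at 1 of 2.

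Genes of neuronal growth and axon guidance were called in both directions, 8 probes higher and 9 lower of 229 (7.42%), with 7 and 11 after centring. *Map2*, a microtubule-associated protein of dendrites, was lower at 2 of 8 probes (-3.50 and -1.01), *Sema5a*, a guidance semaphorin, at 2 of 5 (-2.03 and -1.74), and *Zbtb18*, a repressor in newborn neurons, at 1 of 5 (-1.38). *Epha3*, an ephrin receptor, was higher at 3 of 5 probes (1.11, 0.99 and 0.80), *Chl1*, a cell adhesion molecule, at 1 of 4 (1.44) and *Mapt*, tau, at 1 of 5 (0.99). Of 265 patterning factor probes, 6 were higher and 10 lower (6.04%). *Sox11*, a factor of immature neurons, was higher by 1.78 and 1.65 at 2 of 4 probes. It read 0.80, 0.91 and 1.28 in *nm1054* 129 and -0.80, -0.70 and -0.83 in *nm1054* B6 at ILMN_2643394. *Id2*, an inhibitor of helix-loop-helix factors, was lower by -1.61 at 1 of 3 probes.

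*Lhx1*, a patterning factor of the midbrain and hindbrain, was lower by -1.01 with a limma adjusted p of 0.0473. One *nm1054* B6 brain, replicate 2, read 1.46 and the others 0.26 and 0.02. The call ended without any 1 of 7 arrays, among them each WT 129 array, and the difference ran from -1.17 without *nm1054* B6 replicate 1 to -0.58 without *nm1054* B6 replicate 2.

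Synaptic genes had 1 probe higher and 6 lower of 179 (3.91%), and 0 and 8 after centring. *Stxbp2*, a Munc18 protein of vesicle fusion (-1.59), *Syt4*, a synaptotagmin (-1.59 at 1 of 2 probes), *Unc13c*, a vesicle priming factor (-1.25 at 1 of 3), and *Rims2*, of the active zone (-1.04), were lower. Of 159 neurotransmitter receptor probes, 2 were higher and 4 lower (3.77%), among them the kainate receptor *Grik1* (-1.42 at 1 of 6), the nicotinic receptor *Chrna3* (-1.03 at 1 of 2) and the metabotropic glutamate receptor *Grm5* (-0.95 at 1 of 3). Beside *Sstr1*, 1 other of 121 neuropeptide probes was called (1.65% in all), 1 of the 2 of *Cort*, a ligand of the somatostatin receptors. It was higher by 0.60, and the call ended after centring and without *nm1054* 129 replicate 1 (0.54), *nm1054* 129 replicate 2 (0.53) or *nm1054* B6 replicate 2 (0.56).

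Wnt genes were called equally in both directions, 5 and 5 of 151 probes (6.62%), and 5 and 7 after centring or quantile normalization. The receptor *Fzd2* was higher by 0.79 and the receptor *Fzd6* lower by -0.83 at 1 of 2 probes, beside the antagonist *Sfrp1* and *Ccdc88c*. Of 178 DNA replication and mitosis probes, 7 were higher and 2 lower (5.06%), 3 and 2 after centring. Besides *Ccnd1*, *Birc5*, survivin, was higher at 2 of 3 probes (0.76 and 0.64, the latter not after centring or quantile normalization) and *Gins4*, of the replicative helicase, by 0.66, not after centring. *Kif23*, a kinesin of cell division, was lower by -1.48 at 1 of 3.

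Beside *Fcer1g*, the microglia list of 55 probes held *Ly86* (-0.86), partner of a Toll-like receptor homologue, and the Fc receptor *Fcgr3* (0.84), in all 1 higher and 2 lower (5.45%). Complement genes had 4 higher and 1 lower of 51 (9.8%), and 3 and 1 after centring. Of the 4 higher, 3 were probes of *Masp2*, the protease of the lectin pathway. It read 1.09, 1.18 and 1.13 in *nm1054* 129 and -1.52, -1.43 and -1.12 in *nm1054* B6 at ILMN_1216142 (2.49, limma adjusted p = 1.84e-11), and differed by 1.58, 1.51 and 0.06 at the others. *Cd59a*, which blocks the membrane attack complex, was lower by -1.07.

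Of 95 MHC and antigen presentation probes, 2 were higher and 2 lower (4.21%), *H2-Bl* and the invariant chain *Cd74* (0.77 at 1 of 3) against *H2-Q5* (-0.82 at 1 of 3) and *B2m*. The call of *B2m* (-0.62 at 1 of 3) ended without *nm1054* 129 replicate 2 (-0.55) or *nm1054* B6 replicate 2 (-0.57). The interferon-induced list had 3 calls of 126 probes (2.38%), *Gbp2b* (0.75), *Gbp3* (0.72 at 1 of 2) and *Oasl2* (-0.78 at 1 of 2). MHC and Gbp genes are families of close relatives.

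The balance of calls among matrix genes moved with the scaling, with 8 probes higher and 7 lower of 274 (5.47%), 4 and 9 after centring and 6 and 9 after quantile normalization. *Adamts9*, a matrix protease, was lower by -3.12 at 1 of 3 probes, while *Matn4*, a matrilin, was higher by 1.27 at 1 of 3 (a second, at 0.59, lost its call without *nm1054* 129 replicate 1, at 0.55, or *nm1054* B6 replicate 1, at 0.50) and *Lama3*, a laminin chain, by 1.14. The meninges list of 30 probes had 3 higher and 1 lower (13.3%). They were *Lum* (0.89 at 1 of 2 probes), *Ccn3* (0.85 at 1 of 2) and *Col1a1*, called in opposite directions (0.72 and -1.03). Endothelium and pericytes had 3 higher and 1 lower of 50 (8%), 1 and 1 after centring, among them *Rgs5*, a pericyte regulator of G protein signaling (0.86). Membrane traffic genes, with 12 higher and 6 lower of 341 (5.28%), turned to 6 and 10 after centring and 9 and 9 after quantile normalization. *Necap2* (-3.32 at 1 of 2 probes) and *Picalm* (-3.23), both of clathrin coats, were lower, and both probes of *Vps33b*, of lysosomal fusion, were higher (1.03 and 0.71).

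*Atf4*, the transcription factor of the integrated stress response, was lower by -2.66 at 1 of 2 probes, and no other of the 37 measured genes of its list was called (1.54% of 65 probes). It read -1.21, -1.35 and -1.55 in *nm1054* 129 and 1.21, 1.39 and 1.28 in *nm1054* B6 at that probe, and differed by 0.13 at the second. *Myo7a*, an unconventional myosin of sensory cells, was lower by -2.55 at its only probe. *Elmo1*, an activator of Rac signaling, was called at 1 of 14 probes (-0.59), lost without *nm1054* 129 replicate 1 (-0.49) or *nm1054* B6 replicate 1 (-0.58) or 2 (-0.55), and the probe of *Snx10* was not called (0.06).

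Most of the strain difference in *nm1054* brains was also present in WT brains. limma called 1510 probes (3.33%) between WT 129 and WT B6, and 1071 of the 1479 called in *nm1054* brains were among them. The 408 probes called in *nm1054* brains alone were 201 higher, with a median difference of 0.645 in *nm1054* and 0.453 in WT brains, and 207 lower, with medians of -0.682 and -0.358. Of the 408, 16 had a WT difference of the opposite sign. Being called in 1 genotype and not the other does not show a difference between them. The interaction of strain and genotype tests that difference, and 1 probe of 45281 passed it at a limma adjusted p under 0.05 (0.00221%), with 1851 (4.09%) at an unadjusted p under 0.05. The count was 7 without WT B6 replicate 1, 5 without *nm1054* 129 replicate 2 and 39 with array weights. The interaction counts the transgene of the *nm1054* B6 mice as well as the deletion.

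The probe that passed was ILMN_1217331 of *Mcm6*, a subunit of the replicative helicase that lies near the deletion on chromosome 1. It was not called between the strains in *nm1054* brains, which read 0.40, -0.45 and 0.01 on 129 and 0.20, -0.01 and 0.12 on B6 (-0.12, limma adjusted p = 0.746). In WT brains it read -3.17, -3.03 and -3.16 on 129 and -0.43, 0.40 and 0.23 on B6. The WT 129 brains were thus the only low ones, and the interaction was 3.07 (SE 0.27, limma adjusted p = 4.15e-05), and it was between 2.86 and 3.50 and called with centring, quantile normalization, robust variances, array weights, a replicate block, removal of the less variable probes and each array left out in turn. The other 3 *Mcm6* probes had interactions of 0.74, 0.58 and -0.17 and were not called.

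Among probes called in *nm1054* brains, the smallest interaction p belonged to *Cntn2* (ILMN_2672943), an adhesion molecule of growing axons. It read 1.33, 0.81 and 1.08 in *nm1054* 129 and 0.18, 0.00 and -0.15 in *nm1054* B6, a difference of 1.06 (SE 0.16, limma adjusted p = 0.000163), while the difference in WT brains was -0.36. The interaction of 1.42 had an unadjusted p of 5.4e-06 and a limma adjusted p of 0.0815, and so failed the correction. The other 3 *Cntn2* probes differed by 0.01 to 0.36 in *nm1054* brains and were not called, and the unpaired t-test did not call ILMN_2672943.

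Other genes of small interaction p did not pass either. *Sox6*, a factor of interneurons and glia, differed by -1.46 in *nm1054* and -0.60 in WT brains at 1 of 5 probes (interaction limma adjusted p = 0.899). *Itih2*, of the hyaluronan-binding inter-alpha-inhibitor family, differed by -0.71 and 0.05, *Sfpq*, a splicing factor, by -0.84 and -0.10, and *Gbp3* by 0.72 and 0.11. *Tubgcp4* differed by -1.71 and -0.95 at ILMN_2548458. *Zic2*, a patterning factor, differed by -0.62 and 0.30 (interaction limma adjusted p = 0.538), and its *nm1054* call ended without *nm1054* B6 replicate 1 (-0.47). *Aplnr*, the apelin receptor of endothelium, differed by 0.67 and -0.20 (interaction limma adjusted p = 0.422), and its *nm1054* call ended after centring and without *nm1054* 129 replicate 3 (0.57).

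**Figure D5:**
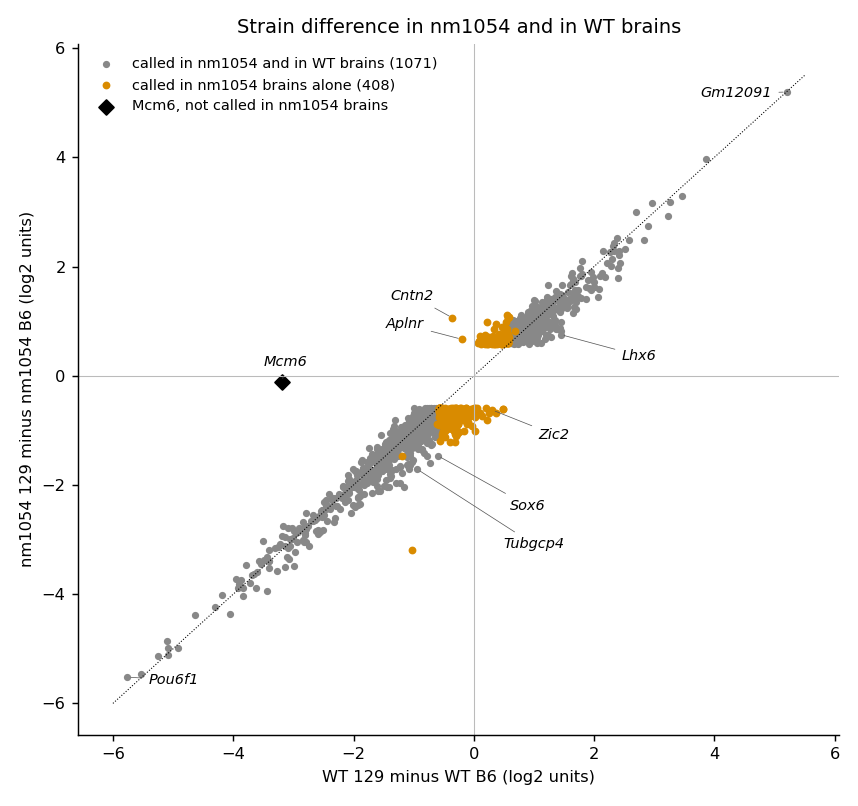
Difference between 129 and B6 in WT brains (horizontal) and in *nm1054* brains (vertical), in log2 units, for the probes called in *nm1054* brains, grey where also called in WT (1071) and orange where not (408), with *Mcm6* as a diamond. The dotted line marks equal differences, and *Mcm6* lies at -3.19 in WT and near 0 in *nm1054*.

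The calls were spread unevenly over the chromosomes. Chromosomes 14 (5.78% of its probes), 8 (4.85%) and 12 (4.52%) had the highest shares, and chromosome X (0.995%, 13 of 1307), 19 (1.54%), 10 (1.56%) and 16 (1.81%) the lowest. In WT brains chromosome 14 had 5.71% and X 0.689%. Most of the 1025 placed genes with a called probe, 785, had no called neighbour. Of the 1930 genes next to a gene with a called probe, 12.4% had 1 themselves, against 4.29% of genes with no such neighbour and 5.07% of all 20230 placed genes. There were 17 runs of 3 or more neighbouring genes, the longest of 8 on chromosome 14, made of predicted genes and clones whose shared sequence was not examined. On chromosome 8 *Gins4*, *Golga7* and *Sfrp1* were neighbours and all higher in *nm1054* 129. On chromosome 17 *Tagap*, a GTPase-activating protein of T cells (-1.16 at 1 of 3 probes), and *Rsph3a*, a radial spoke protein of motile cilia (-0.60), were lower and the next gene, *Cep43*, higher. These neighbours were chosen after their values were seen.

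Around the deletion on chromosome 1 the share of calls was close to that of all probes. Of 81 probes of 40 genes within 10 Mb on either side, 2 were called in *nm1054* brains (2.47%) and 4 in WT brains (4.94%), against 77 and 73 of 2021 probes on the rest of the chromosome. For the interaction, 9 of the 81 had an unadjusted limma p under 0.05, a larger share than the 4.09% over all probes (1851 of 45281). Of the 9, 3 were probes of *Mcm6*, 1 of which was called. The 2 called between the strains in *nm1054* brains were *Insig2*, a brake on cholesterol synthesis, at 1 of 3 probes (-1.70, and -1.59 in WT brains), and *Lypd1*, a modulator of nicotinic receptors, at 1 of 2 (0.96, and 1.05 in WT). Both were chosen after their values were seen. Of the 10 probes of deleted genes, none was called between the strains in *nm1054* brains in the main fit or after centring. After quantile normalization 2 of the 10 were called, both with positive differences, so the absence of calls depended on the scaling. *Dbi* differed by 0.00 at ILMN_1215469 and by 0.39 at ILMN_3150159 (limma adjusted p = 0.0293), below the fold threshold. *Cfap221* differed by 0.16, against a median difference of 0.12 over all probes.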

How the data were processed

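Whole-brain RNA was hybridized by the authors to MouseWG-6 Expression BeadChips, 1 sample per array, and the values were extracted with GenomeStudio per the labels. The deposited values are log2 units, which the authors set in GeneSpring GX relative to each probe's own median across the 12 arrays. The normalization between arrays, the software versions and the beadchip of each array are not given in the sources used here. No filter on low signal was applied, because the values carry no signal level, and precision is limited by how many arrays there were.

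limma 3.58.1 in R 4.3.3 was fitted to all 12 arrays as 4 group means, with Benjamini-Hochberg adjustment over 45281 probes and 8 residual degrees of freedom. A call needed an adjusted p under 0.05 and a fold over 1.5. Restricting to the 6 *nm1054* arrays, centring, quantile normalization, robust variances, array weights, removal of the less variable 50% of probes, other fold thresholds, a replicate block, each array left out in turn and the unpaired t-test of the methods were tried as alternatives. The fit and the calls were tested on simulated data.

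Symbols were updated through the RefSeq table from gene identifiers (28620 probes), accessions (2637), current symbols (2128) and unique older symbols (2343, among them probes of *Golga7*, *Hjurp*, *Sfpq*, *Tubgcp4*, *Sox11*, *Map2*, *Id2* and *Ccn3*), 56 kept the symbol of the platform table and 9497 had none.

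Named genes were the 15 of largest difference in each direction, up to 10 in each direction called at all probes, up to 4 in each direction of each of 35 gene lists, the deleted and sex-linked genes, genes the study discusses, and the 10 of smallest interaction p. Not all of them are printed. The members and lists were chosen with earlier results of these data known. Figures were drawn with matplotlib 3.10.9.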

Additional observations from a re-analysis of the deposited data

Results flagged for a closer look

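One probe passed the interaction of strain and genotype across all probes in the main fit. At *Mcm6* probe ILMN_1217331 the difference between 129 and B6 was -0.12 in *nm1054* brains and -3.19 in WT brains, and the interaction of strain and genotype was 3.07 log2 units (SE 0.27, limma adjusted p = 4.15e-05). It is listed because the strain effect itself differed between the 2 genotypes. The other 3 probes of the gene had interactions of 0.74, 0.58 and -0.17, none of them called.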

How the results depend on the processing

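Of 257 called probes of named genes, none changed direction under any setting and 146 were called under all. The t-test of the methods did not call 109 of them, centring 21, quantile normalization 11, array weights 5 and robust variances 1, and 41 lost the call with some 1 array left out. Over all probes, the t-test called 714 (244 higher, 470 lower) and 286 genes, no fold threshold gave 2913 (1718 higher, 58.98%), and a fold over 2 gave 627 (182 higher, 445 lower, 29.03% higher). Centring left 408 probes higher in 129, with a median difference of 0.0248 over all probes, and quantile normalization gave a median of 0.0195. The interaction was called at 5 probes after quantile normalization, 3 after centring, 39 with array weights and 2 without the less variable probes, and the cause was not tested.

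With 1 array left out, calls ranged from 1368 to 1668, higher from 573 to 782, lower from 795 to 886 and genes from 508 to 590. Interaction calls ranged from 1 to 7 (5 without *nm1054* 129 replicate 2, 7 without WT B6 replicate 1), and the median difference from 0.0862 to 0.16. Replicate numbers gave no sign of pairing the brains. In their deviations from the group means, same-numbered *nm1054* brains of the 2 strains correlated at -0.0457, -0.0396 and -0.102. Same-numbered WT brains correlated at -0.229, -0.00632 and -0.242. With the replicate number as a block, 1462 probes were called (625 higher, 837 lower) and 525 genes, and 2 of the 257 probes lost the call.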

Other observations

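One probe gave a strain difference in *nm1054* brains that rested on part of a group. *Csrp1* (ILMN_1260378), a LIM-domain protein of smooth muscle and actin bundles chosen after its values were seen, read -3.71, -0.46 and -3.83 in *nm1054* 129 and 0.35, 0.60 and 0.60 in *nm1054* B6. Replicate 2 thus lay with the WT 129 brains, which read -0.39, -0.37 and -0.35, and not with the other *nm1054* 129 brains. The difference was -3.18 (SE 0.52, limma adjusted p = 0.000422) in *nm1054* brains and -1.03 in WT brains, where it was not called, and the interaction had an unadjusted p of 0.00911.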
